A study of Mus musculus with 4 samples.

Results

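The genes of cholesterol and fatty acid synthesis were compared between mouse embryonic stem cells (ESCs) given ethanol and the same cells given 4-hydroxytamoxifen (4-OHT) to delete Arid1a, whose product belongs to the BAF complex that moves nucleosomes. The members are 29 named genes, all found among the 14382 genes of the deposited table: 22 of the sterol arm, governed mainly by the transcription factor SREBF2, and 7 of the fatty acid arm, governed mainly by SREBF1. All ESCs carried the Arid1af/f:CreERT2 genotype, that is floxed Arid1a alleles and a Cre recombinase that acts once 4-OHT is bound, and the protocol names neither the promoter of the Cre nor how many clones were used. They grew on irradiated embryonic fibroblast feeders with serum, serum replacement and LIF. Controls had ethanol, the other group had 1 µM 4-OHT, both for 24 hours, and polyA RNA was taken 72 hours after treatment from 2 samples per group. As every treated library had 4-OHT, active Cre and the deletion together, these cannot be told apart, and neither can a difference between the 2 library kits the labels name without saying which sample had which.

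Cells make cholesterol from acetyl-CoA by way of mevalonate, farnesyl diphosphate, squalene and lanosterol, and the same acetyl-CoA is carboxylated and built into palmitate for fatty acids. The SREBF proteins are held in the endoplasmic reticulum by SCAP and the INSIG proteins while sterols are plentiful. When sterols fall they are cut, enter the nucleus and raise the genes of both arms together. Proliferating stem cells use both arms for new membrane, and monounsaturated fatty acids come from the stearoyl-CoA desaturases.

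Few of the lipid synthesis genes differed between the treatments. Scd1 and Dhcr7 rose, Sqle fell, and 26 of the 29 members did not pass the test. Scd1, a stearoyl-CoA desaturase gene, rose 1.64-fold, Dhcr7, which encodes the last reductase of cholesterol synthesis, rose 1.33-fold, and Sqle, which encodes squalene epoxidase, fell to 0.804 of its ethanol level. The test was limma on log2(CPM + 1), where CPM is reads in 1e+06 of the effective library size, with a threshold of 0.05 on the p-value adjusted over 14373 genes. By that test 5.25% of all genes rose and 4.20% fell, against 2 and 1 of 29 members, so the members' share of 3 calls in either direction was close to the 9.45% of all genes. Among genes with a mean of at least 10 CPM the shares were 5.33% higher, 5.44% lower and 10.8% in either direction. An unadjusted p under 0.05 in limma was seen in 6 of the 29 members and in 3441 of the 14373 genes. In edgeR on the read numbers Dhcr7, Scd1 and Scd2 rose and Sqle fell, beside 8.13% higher, 7.64% lower and 15.8% either way over all genes it tested. DESeq2 gave the same 4 calls, beside 2.86%, 2.36% and 5.21%. The median log2 fold change was -0.016 over the 29 members and -0.0015 over all tested genes. The median size of the log2 fold change was 0.093 for the members and 0.107 for the 9684 genes with a mean of at least 10 CPM, the range in which all members lay.

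Read numbers per library were worked out from the group means. As the columns carry no replicate number, the libraries of each treatment are named A and B. They held 6027832 to 6823507 reads. Members had from 82 reads (Idi1) to 7369 reads (Fasn) in a library, with exactly 1 possible pair of read numbers for each member and group. Nothing in the labels says that samples were separate cultures. The p-values here therefore set a difference against the spread among these samples only, and that spread may be technical. In limma the spread of each gene was drawn towards a trend over all genes. The targeted gene, Arid1a, had 517 and 502 CPM with ethanol and 241 and 213 CPM with 4-OHT (log2 fold change -1.16, SE 0.066, limma adjusted p = 7.33e-06). All 8 ESC markers of a fixed list were present, at a summed 3758 to 3892 CPM with ethanol and 3916 to 4115 CPM with 4-OHT; Nanog and Tdgf1 among them rose, Sox2 and Esrrb fell. Of 12 fibroblast markers 7 were measured, at a sum of 107.9 to 113 CPM with ethanol and 128 to 138 CPM with 4-OHT, and Col1a2 and Thy1 among them rose. Col1a2 went from a mean of 20.8 to 45.0 CPM, more than the rise of the whole sum. The other 5 did not pass, with log2 fold changes from -0.28 (Fbn1) to 0.18 (Pdgfrb). Of 10 endoderm markers 6 were measured, and each stood under 10 CPM in every library. Their sum was 18.3 to 20.3 CPM with ethanol and 24.8 to 27.9 CPM with 4-OHT. All 6 had a log2 fold change above 0, and 0 passed in limma. Cubn among them was called higher in edgeR (edgeR adjusted p = 0.00646) and not in DESeq2 (DESeq2 adjusted p = 0.325). No measured marker was at 0 in any library. The part of feeder or endoderm cells in the differences given here was not tested, and in bulk RNA a change in the share of a cell type and a change in RNA per cell cannot be told apart.

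**Figure D1:**
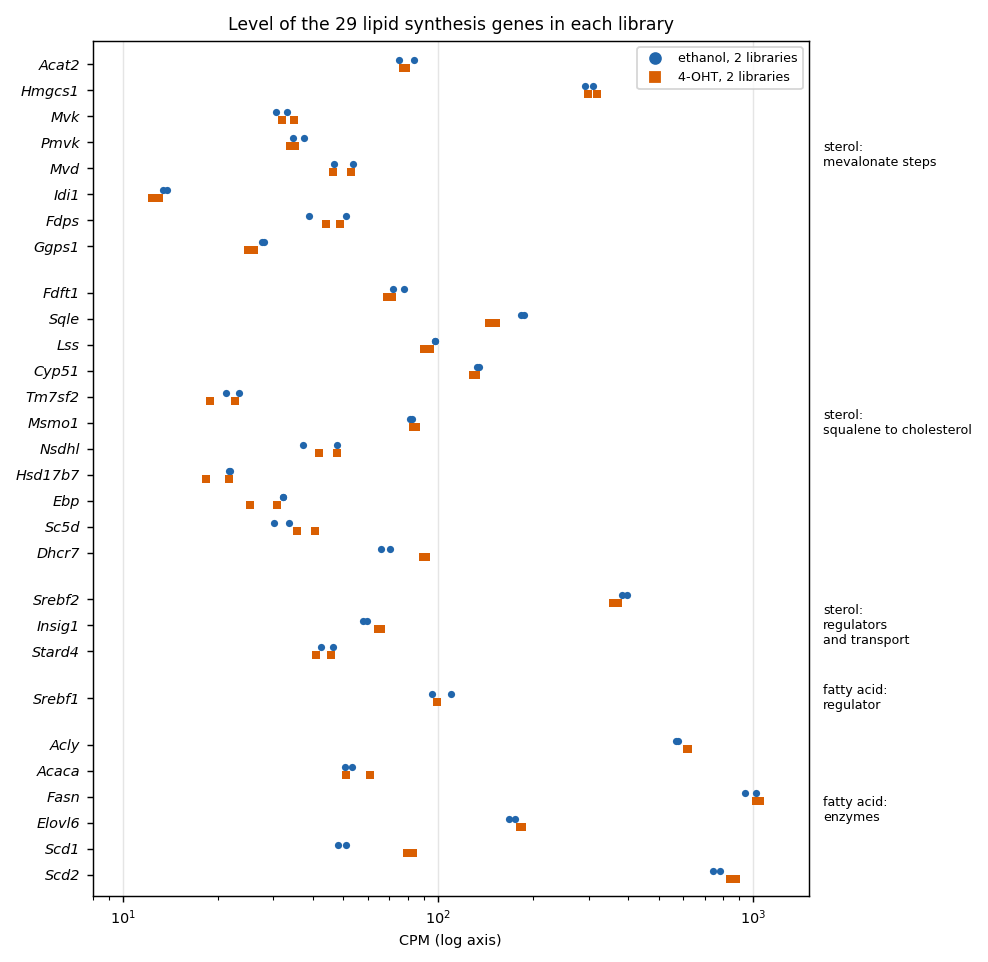
CPM of the 29 genes (horizontal log axis) in the 2 ethanol libraries (blue circles) and the 2 libraries with 4-OHT (orange squares), grouped by role. Fasn, Scd2 and Acly stand highest, at 567 to 1047 CPM, and Scd1, Dhcr7 and Sqle show a clear gap between the groups.

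Promoters were examined for letters that SREBF proteins and their partners are known to read. RefSeq windows (GRCm38.p6, 250 bases before to 50 after a start site) matched 23 of the 29 members, with 28 windows. In 21 of the 28 the bases after the start site lay in a GENCODE coding transcript of the gene on the same strand, and the shares given are over all 28. The sterol regulatory element TCACNCCAC, on either strand, was in 1 member window (Hmgcs1), beside 1.24% of 32851 windows of all genes. The shorter TCACNCCA, which leaves out its last base and was added after that search, was in 3 (Hmgcs1, Msmo1 and Srebf2), beside 4.36%. The NF-Y box CCAAT, read by a partner of the SREBF proteins, was in 21 of the 28 windows (75%), beside 37.4% of all windows and 38% of the 10072 windows of genes with at least 10 CPM. The Sp1 box GGGCGG was in 71.4% of member windows, beside 35.7% and 66.1%, and the E-box CACGTG in 14.3%, beside 7.15% and 10.5%. A match of letters is a description and not a bound site. The windows printed here are shown because Hmgcs1 holds the sterol element, Srebf2 holds only its shorter form, Dhcr7 rose, and Fasn holds CCAAT boxes with no match to either form. Capitals mark TCACNCCA and CCAAT or its reverse ATTGG, and in Fasn a pair of them overlaps.
Hmgcs1, chr13:119690101-119690400, plus strand: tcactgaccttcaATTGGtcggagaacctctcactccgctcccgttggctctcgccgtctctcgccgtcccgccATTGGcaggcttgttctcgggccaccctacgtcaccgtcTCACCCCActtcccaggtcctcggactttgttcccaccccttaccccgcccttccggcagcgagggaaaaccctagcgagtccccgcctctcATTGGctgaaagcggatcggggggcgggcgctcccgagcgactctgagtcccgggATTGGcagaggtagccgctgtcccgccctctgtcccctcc
Srebf2, chr15:82147019-82147318, plus strand: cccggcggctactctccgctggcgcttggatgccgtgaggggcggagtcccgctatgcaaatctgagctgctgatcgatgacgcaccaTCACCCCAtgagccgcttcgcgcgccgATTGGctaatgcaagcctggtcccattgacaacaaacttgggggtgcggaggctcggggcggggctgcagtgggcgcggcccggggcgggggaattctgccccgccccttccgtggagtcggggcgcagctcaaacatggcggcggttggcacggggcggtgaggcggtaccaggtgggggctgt
Dhcr7, chr7:143829964-143830263, plus strand, 1 of its 3 windows: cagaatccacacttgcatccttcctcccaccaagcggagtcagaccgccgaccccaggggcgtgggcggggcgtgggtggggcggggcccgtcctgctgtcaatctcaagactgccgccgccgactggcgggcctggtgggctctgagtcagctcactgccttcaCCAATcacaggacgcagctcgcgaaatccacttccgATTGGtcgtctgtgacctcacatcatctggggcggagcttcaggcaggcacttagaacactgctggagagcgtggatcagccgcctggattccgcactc
Fasn, chr11:120824498-120824797, minus strand: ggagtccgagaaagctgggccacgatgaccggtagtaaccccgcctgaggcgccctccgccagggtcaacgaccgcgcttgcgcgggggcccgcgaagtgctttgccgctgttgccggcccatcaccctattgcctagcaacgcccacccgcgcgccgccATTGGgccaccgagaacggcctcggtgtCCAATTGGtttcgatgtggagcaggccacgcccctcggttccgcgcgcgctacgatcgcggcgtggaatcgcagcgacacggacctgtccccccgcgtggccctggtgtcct
In Hmgcs1 the element begins 137 bases before the start site and its last C stands in lower case after the capitals of the shorter form. In Srebf2 the shorter form begins 162 bases before the start site and lacks the last C. Neither Hmgcs1, with the element, nor Msmo1 and Srebf2, with only the shorter form, passed the test. Dhcr7, whose printed window holds 2 CCAAT boxes and whose other windows hold 0, rose without a match to either form. No window was matched for Scd1, Scd2, Sqle, Fdps, Fdft1 and Stard4. Only exact matches of the letters were counted, so a window without one may still hold a variant site. Whether a match goes with a change between the treatments was not tested.

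The first part of the sterol arm turns acetyl-CoA into the isoprenoid farnesyl diphosphate. Of its 8 members 0 passed in limma, 0 had an unadjusted p under 0.05, and edgeR and DESeq2 on the recovered reads also called 0. Acat2, which joins acetyl-CoA units, had 74.9 and 83.5 CPM with ethanol and 78.7 and 77.6 CPM with 4-OHT. Hmgcs1, the HMG-CoA synthase gene, had 292 and 310 CPM with ethanol and 319 and 299.5 CPM with 4-OHT, and its groups overlapped (log2 fold change 0.04, SE 0.059, limma adjusted p = 0.747). Mvk, the mevalonate kinase gene, had 33.0 and 30.6 CPM against 32.0 and 35.0 CPM. The groups of all 3 genes overlapped.

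Pmvk and Mvd, which act on phosphomevalonate and its diphosphate, were close to level: Pmvk had 37.5 and 34.6 CPM with ethanol and 33.8 and 35.1 CPM with 4-OHT. Mvd had 53.6 and 46.8 CPM against 52.9 and 46.4 CPM, so that its libraries differed more within a group than the groups did. Idi1, the isopentenyl diphosphate isomerase gene and the lowest member, had 13.8 and 13.4 CPM with ethanol and 12.4 and 13.0 CPM with 4-OHT. Both of its 4-OHT libraries were below both ethanol libraries, with a log2 fold change of -0.09 (SE 0.14) that did not pass. Fdps, which makes farnesyl diphosphate, spread from 38.7 to 51.0 CPM between the ethanol libraries, and the 4-OHT libraries lay inside that range at 48.6 and 44.2 CPM. Ggps1, at the branch to the geranylgeranyl group that anchors small GTPases, had 27.6 and 27.9 CPM with ethanol and 24.9 and 26.1 CPM with 4-OHT.

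Some of these levels are uncertain because transcripts share sequence with other genes. Of the 50-base stretches in GENCODE coding transcripts, 80.6% of those of Fdps also occur in transcripts of other genes, mainly the overlapping Gm43738. The share was 40.7% for Acat2 (Acat3), 30.7% for Fdft1 (its neighbour Ctsb), 30.5% for Idi1 and 52.6% for Acaca (Gm5182). It was 13.3% for Hmgcs1 and 11.1% for Ggps1, and at most 4.66% for each of the other 22 members. Sqle and Dhcr7 shared 0% and Scd1 4.66%, mostly with Scd3.

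The second part of the arm turns farnesyl diphosphate into squalene, closes the rings to lanosterol and trims lanosterol to cholesterol. Both calls of the sterol arm lay here, in opposite directions. Sqle (mm10 chromosome 15, 59315077 to 59331192, plus strand) adds the epoxide on which ring closure acts and is a known control point of the pathway. It had 183 and 186 CPM with ethanol and 145 and 152 CPM with 4-OHT. Both 4-OHT libraries lay below both ethanol libraries (log2 fold change -0.31, SE 0.059, limma adjusted p = 0.00810). Dhcr7 (chromosome 7, 143823145 to 143848410, plus strand) had 65.9 and 70.0 CPM with ethanol and 91.7 and 89.2 CPM with 4-OHT. The 4-OHT libraries were both higher than the ethanol libraries (log2 fold change 0.41, SE 0.070, limma adjusted p = 0.00511). Per kilobase of coding-transcript exons, the level of Dhcr7 was 0.300 and 0.313 of that of Sqle in the ethanol libraries and 0.528 and 0.488 of it with 4-OHT. Leaving out either 4-OHT library took both calls from limma, which then called 0 of 14373 genes (lowest adjusted p 0.129 without library A and 0.120 without library B, with 2504 and 2517 genes at an unadjusted p under 0.05). In edgeR both calls held without either library.

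The enzymes on each side of Sqle did not pass. Fdft1, the squalene synthase gene, had 71.9 and 78.0 CPM with ethanol and 68.9 and 71.4 CPM with 4-OHT. Lss, which closes the rings, had 97.7 CPM in both ethanol libraries and 94.2 and 89.8 CPM with 4-OHT (log2 fold change -0.09, SE 0.065, limma adjusted p = 0.480). Cyp51, the lanosterol demethylase gene, had 135 and 133 CPM against 129 and 132 CPM. In these 3 genes the 4-OHT libraries were all below the ethanol libraries, by less than the fall of Sqle, whose level per kilobase was 3.17 and 3.23 times that of Lss with ethanol and 2.60 and 2.87 times with 4-OHT.

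The sterol reductase gene Tm7sf2 had 21.2 and 23.2 CPM with ethanol and 18.9 and 22.6 CPM with 4-OHT. Msmo1, the methylsterol monooxygenase gene, had 82.5 and 81.3 CPM against 84.7 and 83.3 CPM. Nsdhl, which removes the oxidised methyl groups, had 37.4 and 47.6 CPM with ethanol and 47.8 and 41.8 CPM with 4-OHT. In Tm7sf2 and Nsdhl the groups overlapped, and in Msmo1 they were apart by less than 2 CPM. Hsd17b7, the sterol ketone reductase gene, had 21.9 and 21.7 CPM with ethanol and 21.6 and 18.3 CPM with 4-OHT. Ebp, the sterol isomerase gene, had 32.1 CPM in both ethanol libraries and 30.7 and 25.3 CPM with 4-OHT (log2 fold change -0.20, SE 0.114, limma adjusted p = 0.335). Its 4-OHT libraries lay farther from each other than the higher of them lay from ethanol. Sc5d, the sterol desaturase gene that acts just before Dhcr7, had 30.1 and 33.7 CPM with ethanol and 40.5 and 35.6 CPM with 4-OHT (log2 fold change 0.25, SE 0.106). It missed the threshold in limma (adjusted p = 0.187) and in edgeR (adjusted p = 0.105).

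The control genes of the sterol arm did not pass either. Srebf2 itself had 398 and 382 CPM with ethanol and 360 and 372 CPM with 4-OHT (log2 fold change -0.09, SE 0.054, limma adjusted p = 0.347). Insig1, a sterol-repressed anchor of the SCAP complex and itself an SREBF target, had 57.5 and 59.4 CPM with ethanol and 66.0 and 64.2 CPM with 4-OHT (log2 fold change 0.15, SE 0.074, limma adjusted p = 0.244). Stard4, a sterol carrier gene, had 42.5 and 46.2 CPM against 40.9 and 45.8 CPM. Insig1 stood higher and Srebf2 lower in both 4-OHT libraries, while Stard4 overlapped. Over the 22 genes of the arm the median log2 fold change was -0.036, with 8 above 0 and 14 below, and the summed level was 1847 and 1890 CPM with ethanol and 1841 and 1820 CPM with 4-OHT.

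**Figure D2:**
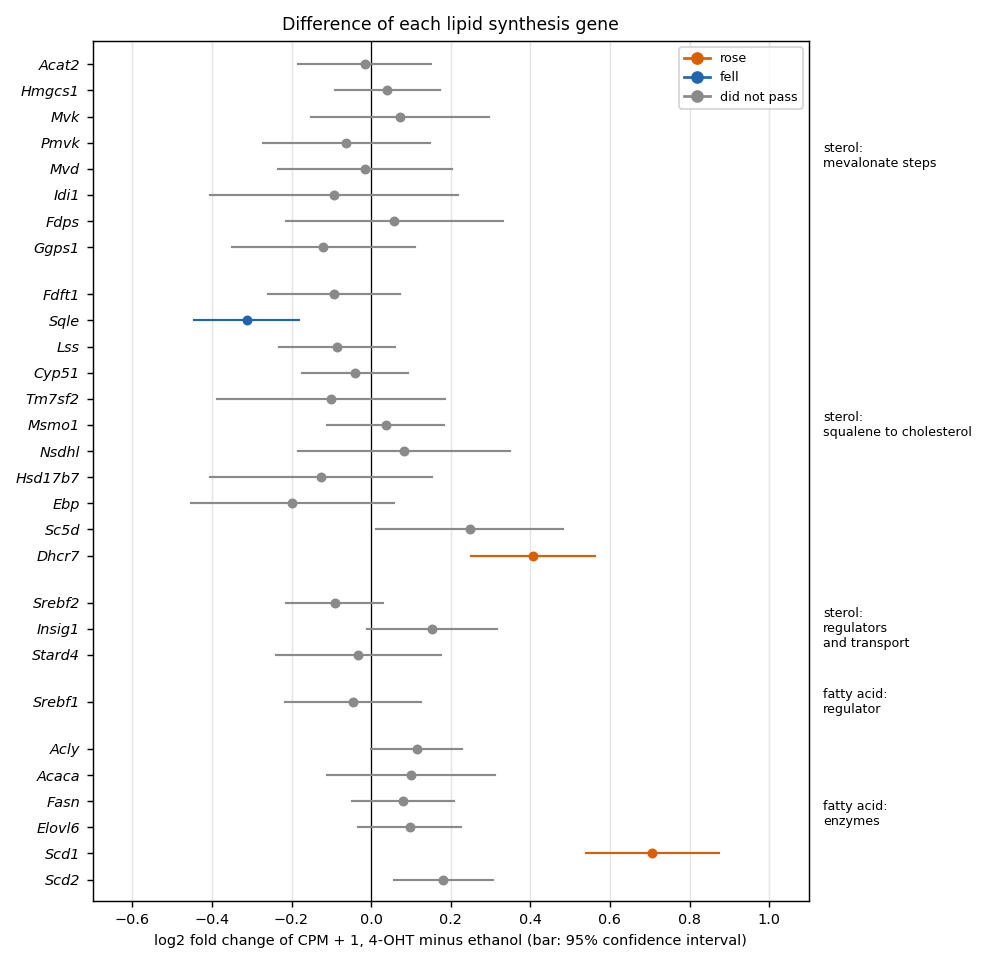
Points give the log2 fold change (horizontal axis, 4-OHT minus ethanol, on CPM + 1) and bars its 95% confidence interval in limma, for the 29 genes by role. Scd1 and Dhcr7 rose (orange) and Sqle fell (blue), while 26 genes (grey) did not pass; all 6 fatty acid enzymes have their point above 0.

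The fatty acid arm held 1 regulator and 6 enzymes. Srebf1, the gene of the arm's transcription factor, had 109.7 and 95.5 CPM with ethanol and 99.1 and 99.3 CPM with 4-OHT, inside the spread of the ethanol libraries. All 6 enzyme genes had a higher mean with 4-OHT and a log2 fold change above 0. Over all tested genes 7115 of 14373 had a log2 fold change above 0, and 4461 of the 9684 with at least 10 CPM. Of the 6 enzyme genes only Scd1 passed in limma, and 0 were called lower in any of limma, edgeR and DESeq2. An unadjusted p under 0.05 in limma was seen in 3 of the 6, beside 3441 of the 14373 genes. Acly, which makes cytosolic acetyl-CoA from citrate, had 576 and 567 CPM with ethanol and 622 and 616 CPM with 4-OHT (log2 fold change 0.11, SE 0.051, limma adjusted p = 0.208). Acaca, whose product makes malonyl-CoA, had 50.5 and 53.2 CPM against 60.7 and 51.0 CPM, so its groups overlapped.

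Fasn, the fatty acid synthase gene and the member with the most reads, had 1016 and 941 CPM with ethanol and 1047 and 1019 CPM with 4-OHT. Elovl6, which lengthens palmitate to stearate, had 167 and 175 CPM against 182 and 184 CPM. In Fasn, Elovl6 and Acly both 4-OHT libraries lay above both ethanol libraries, by 5.60%, 6.95% and 8.26% in the mean, and none of the 3 passed in limma, edgeR or DESeq2. The confidence interval of Fasn ran from 0.967-fold to 1.15-fold.

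The desaturases Scd1 and Scd2 put the double bond into stearate and palmitate, and their genes lie near each other on chromosome 19 (Scd1 at 44394455 to 44407879, minus strand, Scd2 at 44293674 to 44306864, plus strand). Scd1 had 47.9 and 51.0 CPM with ethanol, or 309 and 327 reads, and 82.9 and 79.8 CPM with 4-OHT, or 583 and 502 reads. Its 4-OHT libraries stood far above the ethanol libraries (log2 fold change 0.71, SE 0.075, 95% interval 0.54 to 0.87, limma adjusted p = 0.000391). This was the largest change among the 29 genes in limma. Scd2 had 742 and 781 CPM with ethanol and 883 and 844 CPM with 4-OHT. Both 4-OHT libraries of Scd2 were higher, by 13.4% in the mean (log2 fold change 0.18, SE 0.056). Scd2 missed the threshold in limma over all genes (adjusted p = 0.0724), and passed in edgeR (adjusted p = 0.0181), in DESeq2 (adjusted p = 0.04998) and in limma after a filter on low genes (adjusted p = 0.0166). The edgeR call was lost without ethanol library A, ethanol library B or 4-OHT library A (adjusted p = 0.394, 0.127 and 0.0860) and held without 4-OHT library B (adjusted p = 0.00397). Per kilobase of coding-transcript exons Scd2 stood 13.7 and 13.6 times above Scd1 in the ethanol libraries and 9.44 and 9.37 times above it with 4-OHT, so Scd2 was the higher of the pair in all 4 libraries. Only 3.49% of the 50-base stretches of Scd1 occur in the gene that shares most with it. Without either 4-OHT library limma lost the call of Scd1 (adjusted p = 0.134 and 0.136), as it lost every other call, while edgeR kept it in each of 4 fits that left out 1 library.

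Over the 7 genes of the fatty acid arm the median log2 fold change was 0.10, against -0.036 for the sterol arm and -0.0015 over all tested genes. The summed level was 2709 and 2664 CPM with ethanol and 2977 and 2893 CPM with 4-OHT, higher by 9.25%. The difference between the arms was not tested, and the sum is carried mostly by Fasn, Scd2 and Acly. Groups that did not overlap were seen in 9 members with higher and 9 with lower values under 4-OHT, beside 26.4% and 25.7% of all tested genes (52.1% either way) and 24.4% and 28.9% of genes with at least 10 CPM (53.3% either way). By arm they were 5 higher and 0 lower of 7 fatty acid genes, and 4 higher and 9 lower of 22 sterol genes.

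For the 26 members that did not pass, limma gives an interval for each change, under the same limit of spread as the p-values. Each interval covers 1 gene, with no correction for the number of genes. Their 95% intervals reached down to 0.730-fold at the lowest, for Ebp, and up to 1.40-fold at the highest, for Sc5d. A miss of the threshold does not show that these genes kept their level. Per kilobase, the levels in ethanol ran from 4.31 CPM for Hsd17b7 to 139.6 CPM for Scd2, with Acly at 124 CPM, Fasn at 97.4 CPM, Hmgcs1 at 86.3 CPM, Srebf2 at 76.8 CPM and Sqle at 66.9 CPM next. Srebf2 was 3.07 and 3.39 times the level of Srebf1 per kilobase with ethanol and 3.07 and 3.17 times with 4-OHT.

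**Figure D3:**
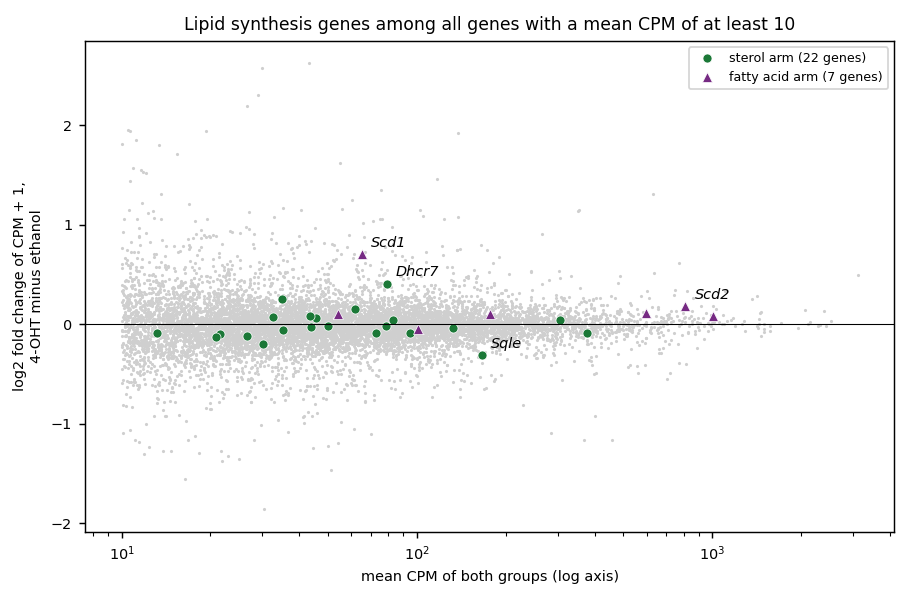
Each point is a gene, with its mean CPM over the groups on the horizontal log axis and its log2 fold change (CPM + 1, 4-OHT minus ethanol) on the vertical axis, for the 9684 genes with a mean of at least 10 CPM (grey). Sterol genes (green circles) and fatty acid genes (purple triangles) lie mostly near 0, and Scd1, Dhcr7, Sqle and Scd2 are named.

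Other genes of lipid metabolism, from lists made by function, numbered 60 with a value. Of these 6 rose and 0 fell in limma, beside 5.25% and 4.20% of all genes. An unadjusted p under 0.05 in limma was seen in 15 of the 60, beside 3441 of the 14373 genes tested. On the recovered reads edgeR called 8 higher and 1 lower, and DESeq2 4 higher and 0 lower. The median log2 fold change of the 60 was -0.00029. Among 6 further sterol synthesis genes 0 passed in limma, edgeR or DESeq2, and 2 had an unadjusted p under 0.05 in limma.

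Among 8 genes of SREBF processing and its partners 0 passed in limma, with 2 at an unadjusted p under 0.05, 1 call in edgeR and 0 in DESeq2. The edgeR call was Scap, which escorts the SREBF proteins, at 107 and 101 CPM with ethanol and 123 and 117 CPM with 4-OHT (limma adjusted p = 0.0835, edgeR adjusted p = 0.0467). The level of Scap is uncertain, as 18.6% of its exon bases overlap 5830462I19Rik. Insig2 had 23.4 and 23.7 CPM against 22.9 and 23.2 CPM. Of 9 genes that use isoprenoids, such as the prenyltransferases, 0 passed in limma, edgeR or DESeq2, and 1 had an unadjusted p under 0.05 in limma.

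Of 16 uptake and efflux genes 2 rose in limma, Vldlr among them, and 14 did not pass, beside 5.25% of all genes higher and 4.20% lower. Vldlr, a lipoprotein receptor gene, went from 4.03 and 3.59 CPM to 8.24 and 9.06 CPM (log2 fold change 1.005, SE 0.181, limma adjusted p = 0.00635), from 26 and 23 reads to 58 and 57, and DESeq2 did not call it (adjusted p = 0.0590). Both 4-OHT libraries of Vldlr were above both ethanol libraries.

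Of 21 further fatty acid genes 4 rose, 0 fell and 17 did not pass in limma, beside 5.25% of all genes higher and 4.20% lower. An unadjusted p under 0.05 in limma was seen in 8 of the 21, beside 3441 of the 14373 genes tested. Fads2, which begins the desaturation of polyunsaturated fatty acids, had 63.2 and 64.6 CPM with ethanol and 90.4 and 91.7 CPM with 4-OHT (log2 fold change 0.50, SE 0.068, limma adjusted p = 0.00137). Fads1, the next desaturase gene of that route, had 76.3 and 83.8 CPM against 88.7 CPM in both 4-OHT libraries and did not pass (limma adjusted p = 0.246). Like Scd1, Scd2 and Fads2, Fads1 was above both ethanol libraries in both 4-OHT libraries, which held for 26.4% of all tested genes. Acsl4, an acyl-CoA synthetase gene that favours polyunsaturated substrates, had 78.4 and 85.5 CPM with ethanol and 108 CPM in both 4-OHT libraries (log2 fold change 0.40, SE 0.069, limma adjusted p = 0.00563). Dgat2, of triacylglycerol synthesis, had 9.92 and 10.6 CPM against 16.5 and 15.1 CPM (limma adjusted p = 0.0333), and DESeq2 did not call it (adjusted p = 0.245). Mid1ip1, whose product promotes the polymerisation of acetyl-CoA carboxylase, had 60.4 and 53.8 CPM with ethanol and 76.5 and 73.6 CPM with 4-OHT (limma adjusted p = 0.0135). Its value is uncertain, as 26.9% of its exon bases overlap Gm14493. The edgeR test also called Mlxipl higher and Acsl3 lower (edgeR adjusted p = 0.0266 and 0.0203). DESeq2 called neither of them (DESeq2 adjusted p = 0.494 and 0.308). Mlxipl had 23 and 24 reads with ethanol and 46 and 38 reads with 4-OHT.

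**Figure D4:**
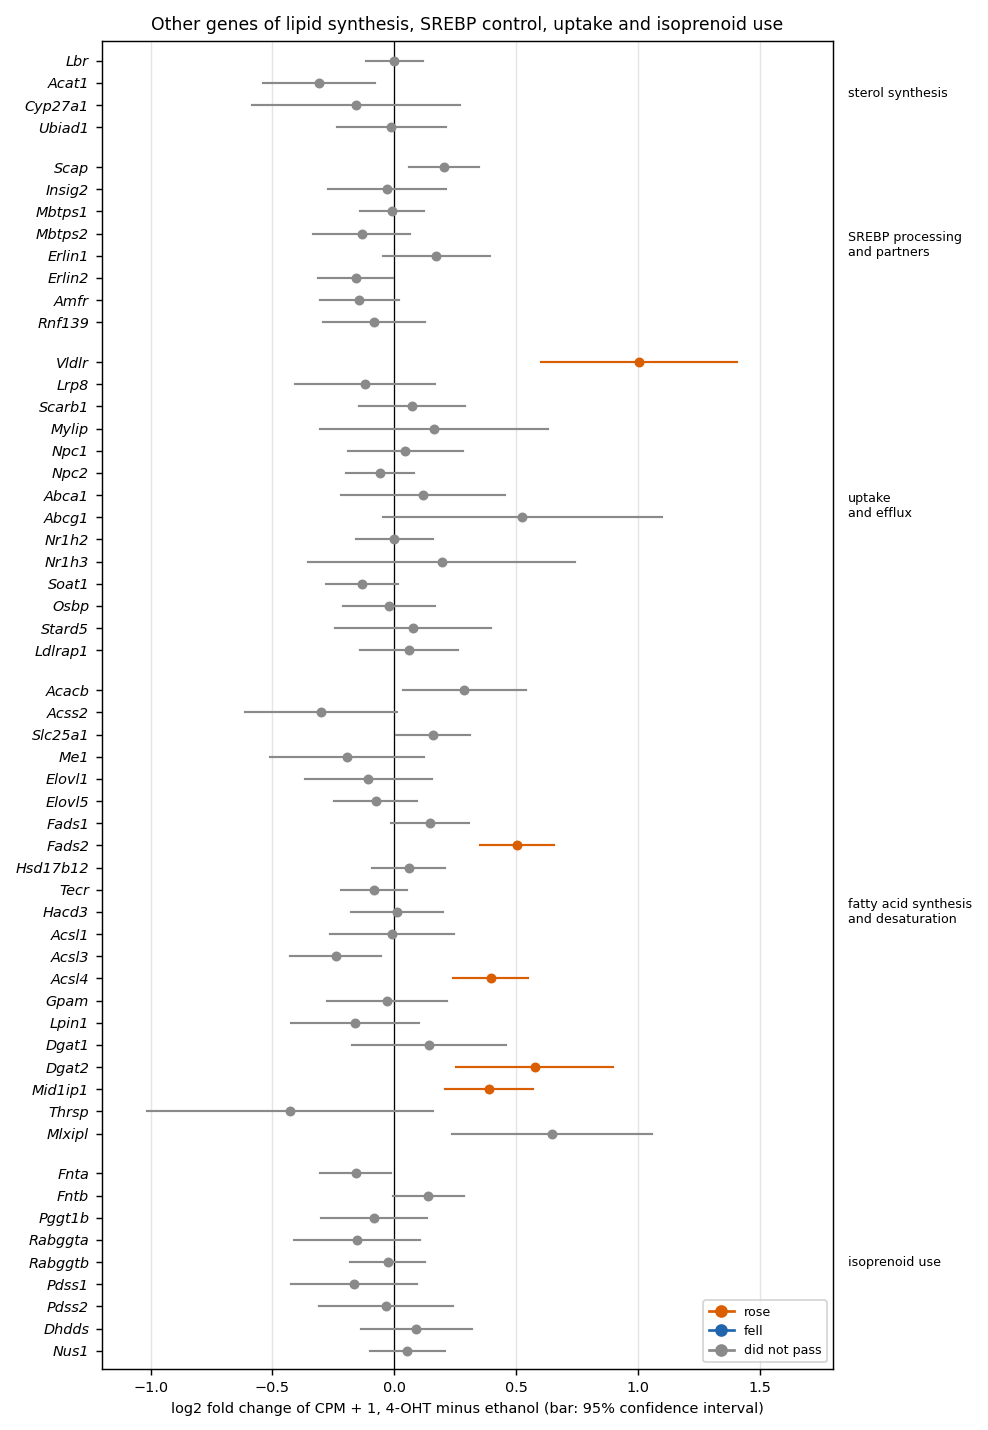
Points give the log2 fold change (horizontal axis, 4-OHT minus ethanol, on CPM + 1) and bars its 95% confidence interval in limma, for 56 of the 60 other genes by list. Vldlr, Fads2, Acsl4, Dgat2 and Mid1ip1 rose (orange), and 51 genes (grey) did not pass.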

How the data were processed

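PolyA RNA of 4 samples was sequenced. The submitters' processing notes name the mm10 build and, in no stated order, HISAT2, Trimmomatic, edgeR and FastQC. Not given in the sources used here: read counter, annotation and strand setting. Per the file headers, the deposited columns are a mean CPM per group, a log2 fold change and an adjusted p-value. The authors' log2 and p-value columns were set aside, because with rows in text order of the gene number the p never fell in 14381 steps, so they are out of register. Each mean is the average over 2 libraries of a whole read number times the worth of a read in that library (0.142 to 0.159 CPM). Whole reads came out for 100% of values to the printed digits, with 1 possible pair for 99.7% (ethanol) and 99.9% (4-OHT). Several pairs were possible for 48 values (ethanol) and 14 values (4-OHT). Of these, 40 and 13 were settled by taking the only pair whose read numbers lay within 2-fold of each other. The 9 genes that this rule did not settle were left out. For 3000 randomly moved values per group the share that came out as whole reads was 0.633% and 0.500%.

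The two-sided test of 4-OHT minus ethanol used limma-trend (limma 3.58.1, R 4.3.3) on log2(CPM + 1), Benjamini-Hochberg adjusted over 14373 genes, without a filter. A fold change on this scale understates that of low genes. Alternatives were edgeR 4.0.16 (quasi-likelihood) and DESeq2 1.42.0 on recovered reads, a pseudocount of 0.1, a minimum mean log2(CPM + 1) of 1, size factors of DESeq2, and leaving out each library. The scripts were tested on simulated data. All members were named, with Scap, Insig2, Arid1a and at most 4 called genes per other list and direction. Some genes that this rule names are counted but not reported here. The motif TCACNCCA was added after seeing the data. Fads1, Mlxipl, Acsl3, Fbn1, Pdgfrb, Cubn and the called markers were named after their values were seen. Members and lists were chosen with earlier results of these data known. Exon lengths and shared stretches are from GENCODE vM21, and symbols from the deposited table or RefSeq. Of 120 list entries 10 were not analysed here. Counting limits cover counting error only.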

Additional observations from a re-analysis of the deposited data

How the results depend on the processing

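The calls of Scd1, Dhcr7 and Sqle stood in limma with a pseudocount of 0.1, with a filter on low genes and with size factors of DESeq2, and also in edgeR and in DESeq2. In edgeR, DESeq2 and the filtered fit Scd2 joined them. Over all genes limma called 1358, edgeR 2043 and DESeq2 705. Leaving out each library in turn, in limma and in edgeR, gave 0 to 1769 calls over all genes, 0 to 3 members higher, 0 to 1 lower and 0 to 8 of the other lipid genes; the 0 counts were those of limma without either 4-OHT library, where 4 (without A) and 5 (without B) members had an unadjusted p under 0.05. In such fits the group left with 1 library is assumed to vary like the other. Among members that did not pass, 9 changed sign in 1 or more of these fits, and none did under the other settings: the log2 fold change ran over Hmgcs1 -0.0055 to 0.085, Mvd -0.11 to 0.088, Fdps -0.14 to 0.26, Nsdhl -0.089 to 0.26, Srebf1 -0.15 to 0.055, Acat2 -0.094 to 0.062, Stard4 -0.11 to 0.047, Tm7sf2 -0.23 to 0.022, Acaca -0.024 to 0.23. No paired analysis was possible because the columns carry no replicate numbers. Why limma lost its calls without a 4-OHT library, and why the tools differ in their counts: the cause was not tested.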
